A study of Mus musculus with 8 samples.

Results

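Atp2a1 encodes SERCA1, the calcium pump of fast muscle fibres, and it is described here with 9 other genes of muscle calcium handling: Atp2a2, Atp2a3, Ryr1, Casq1, Casq2, Cacna1s, Trdn, Sln and Pvalb. Atp2a1 was selected on its own measured values, because it was lower in RhoA het than in control within the libraries that share a replicate number, and the other genes were listed for their function. All 10 symbols were found among the 57180 genes of the count table. The RNA came from muscle stem cells, the Pax7-positive progenitors that lie beside the fibres, sorted by flow cytometry and taken without culture. The 4 control libraries (replicates 2, 5, 7 and 8) are labelled wild type. The 4 RhoA het libraries (replicates 5, 6, 7 and 8) come from mice with a floxed RhoA allele beside an intact one in these cells, and their genotype field reads RhoA knockdown. The driver of the recombination, the age of the mice and whether mice were pooled are not given in the sources used here. Below, a library is named by its group and replicate number, and values by library follow the order control 2, 5, 7, 8 and RhoA het 5, 6, 7, 8.

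In a muscle fibre, an action potential moves the voltage sensor of the transverse tubule, whose pore subunit is Cacna1s, and this opens the release channel Ryr1 in the sarcoplasmic reticulum. Calcium that calsequestrin (Casq1 and Casq2) had held in the lumen, anchored at the junction by triadin (Trdn), flows out and starts contraction. Parvalbumin (Pvalb) binds calcium in the cytosol of fast fibres, and the SERCA pumps return it to the store, braked by the micropeptide sarcolipin (Sln). Atp2a1 is the pump of fast fibres, Atp2a2 that of slow and cardiac muscle with a splice form found in most cells, and Atp2a3 that of several non-muscle cells such as blood and endothelial cells. A muscle stem cell has no contractile apparatus, so its own calcium store is an ordinary endoplasmic reticulum.

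Libraries held between 19138763 and 25606342 assigned fragments. Rhoa, the targeted gene, was at 383, 309, 273 and 334 CPM (the fragment count scaled to library size by TMM) in control and at 253, 271, 253 and 282 CPM in RhoA het, and the groups overlapped. The stem cell markers were present in every library: Pax7 lay between 46.6 and 100.1 TPM and Vcam1 between 655 and 1762 TPM, where TPM is the deposited length-scaled level. In TPM the groups overlapped for Pax7. In CPM it was at 112 to 176 in control and at 78.5 to 105.6 in RhoA het, without overlap. Groups separated in this way, in either direction, for 1.81% of the genes tested below. All 19 genes of a myofibre list, which is not limited to fast fibres, were also detected. Their summed CPM was 294 to 784 in the control libraries and 231 to 788 in RhoA het. Tnnc2 alone among them was at 0 in a library, RhoA het 8. The 6 mural and smooth muscle genes summed to a CPM of 599 to 1133 in control and of 623 to 2268 in RhoA het, highest in RhoA het 8. The 10 endothelial genes summed to a CPM of 74.3 to 169.9 in control and of 114 to 692 in RhoA het, highest in RhoA het 6. Control 2 and RhoA het 6 carried the Y-linked gene Ddx3y, at 605 and 558 CPM, and the other 6 libraries, which are those of the pairs 5, 7 and 8, held at most 0.0929 CPM of it. In bulk RNA, fewer cells of a type and less RNA per cell cannot be told apart, and this holds for every level below.

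Because several of these genes moved together across libraries, the sequence before their start is shown for the 4 genes of the Atp2a1 pattern that have an entry in the RefSeq promoter table, and for Casq2, which followed another pattern. Each is the 250 bases before the annotated start, 5′ to 3′ on the gene's strand, in build GRCm38.p6. These positions are not those of the count table, which uses mm39. Capitals mark E-boxes (CANNTG, the motif bound by myogenic factors such as MyoD) and matches to the MEF2 motif, read on both strands. Atp2a2, Trdn and Sln had no entry.
Atp2a1, chr7:126463074-126463323, minus strand: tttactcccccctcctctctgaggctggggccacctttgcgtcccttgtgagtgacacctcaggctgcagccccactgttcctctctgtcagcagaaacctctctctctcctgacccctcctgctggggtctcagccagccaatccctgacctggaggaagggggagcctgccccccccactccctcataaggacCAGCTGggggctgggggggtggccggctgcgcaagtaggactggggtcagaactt
Pvalb, chr15:78206401-78206650, minus strand: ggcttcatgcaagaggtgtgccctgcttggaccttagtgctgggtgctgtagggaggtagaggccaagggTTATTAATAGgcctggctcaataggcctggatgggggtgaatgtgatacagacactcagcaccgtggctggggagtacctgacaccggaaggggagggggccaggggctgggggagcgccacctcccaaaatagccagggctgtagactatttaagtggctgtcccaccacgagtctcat
Casq1, chr1:172219896-172220145, minus strand: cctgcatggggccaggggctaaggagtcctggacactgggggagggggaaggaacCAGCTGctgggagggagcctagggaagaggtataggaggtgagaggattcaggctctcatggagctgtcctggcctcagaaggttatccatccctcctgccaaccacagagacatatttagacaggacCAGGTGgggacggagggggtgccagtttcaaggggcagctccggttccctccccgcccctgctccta
Cacna1s, chr1:136052561-136052810, plus strand: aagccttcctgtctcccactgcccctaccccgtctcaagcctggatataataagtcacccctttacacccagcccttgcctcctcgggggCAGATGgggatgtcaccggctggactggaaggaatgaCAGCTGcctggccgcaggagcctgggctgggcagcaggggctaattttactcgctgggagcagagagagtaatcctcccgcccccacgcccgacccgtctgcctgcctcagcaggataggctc
Casq2, chr3:102086165-102086414, plus strand: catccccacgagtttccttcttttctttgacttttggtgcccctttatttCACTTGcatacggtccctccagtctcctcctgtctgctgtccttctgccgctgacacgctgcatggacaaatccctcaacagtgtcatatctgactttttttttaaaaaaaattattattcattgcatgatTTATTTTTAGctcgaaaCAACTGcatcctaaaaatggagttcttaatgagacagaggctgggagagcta

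The Atp2a1 window held 1 E-box, 55 to 50 bases before the start, and the Casq1, Cacna1s and Casq2 windows held 2 each. The same E-box letters, CAGCTG, stood in the Atp2a1, Casq1 and Cacna1s windows. The MEF2 motif was found in the Pvalb window shown, 180 to 171 bases before the start, and in the Casq2 window, 69 to 60 bases before it. Of 32851 promoter windows of this length, 66.2% held an E-box and 2.92% held a MEF2 match, so an E-box in a window is common. The CArG box, the motif of serum response factor, was in 1.47% of all windows and in none of the 8 windows of the 7 members with an entry. These matches describe letters only.

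Levels differed widely between genes. By mean TPM over the 8 libraries, Atp2a2 was highest at 62.7, followed by Atp2a1 at 31.4, Pvalb at 29.5, Casq2 at 27.9, Atp2a3 at 21.6, Casq1 at 7.83, Sln at 6.58, Cacna1s at 0.571, Ryr1 at 0.458 and Trdn at 0.355. Each gene's range over the libraries overlapped that of its neighbour in this order. The channels that define the release machinery, Cacna1s and Ryr1, were under 1 TPM on average. TPM is scaled by exon length, which is 21829 bases for Ryr1, so a low TPM is not always a low count. Ryr1 held 46 to 92 fragments per library, Casq1 33 to 205 and Pvalb 20 to 478. All 10 genes passed the filter on low counts. Cacna1s and Trdn did so with fewer than 10 fragments in some libraries.

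**Figure D1:**
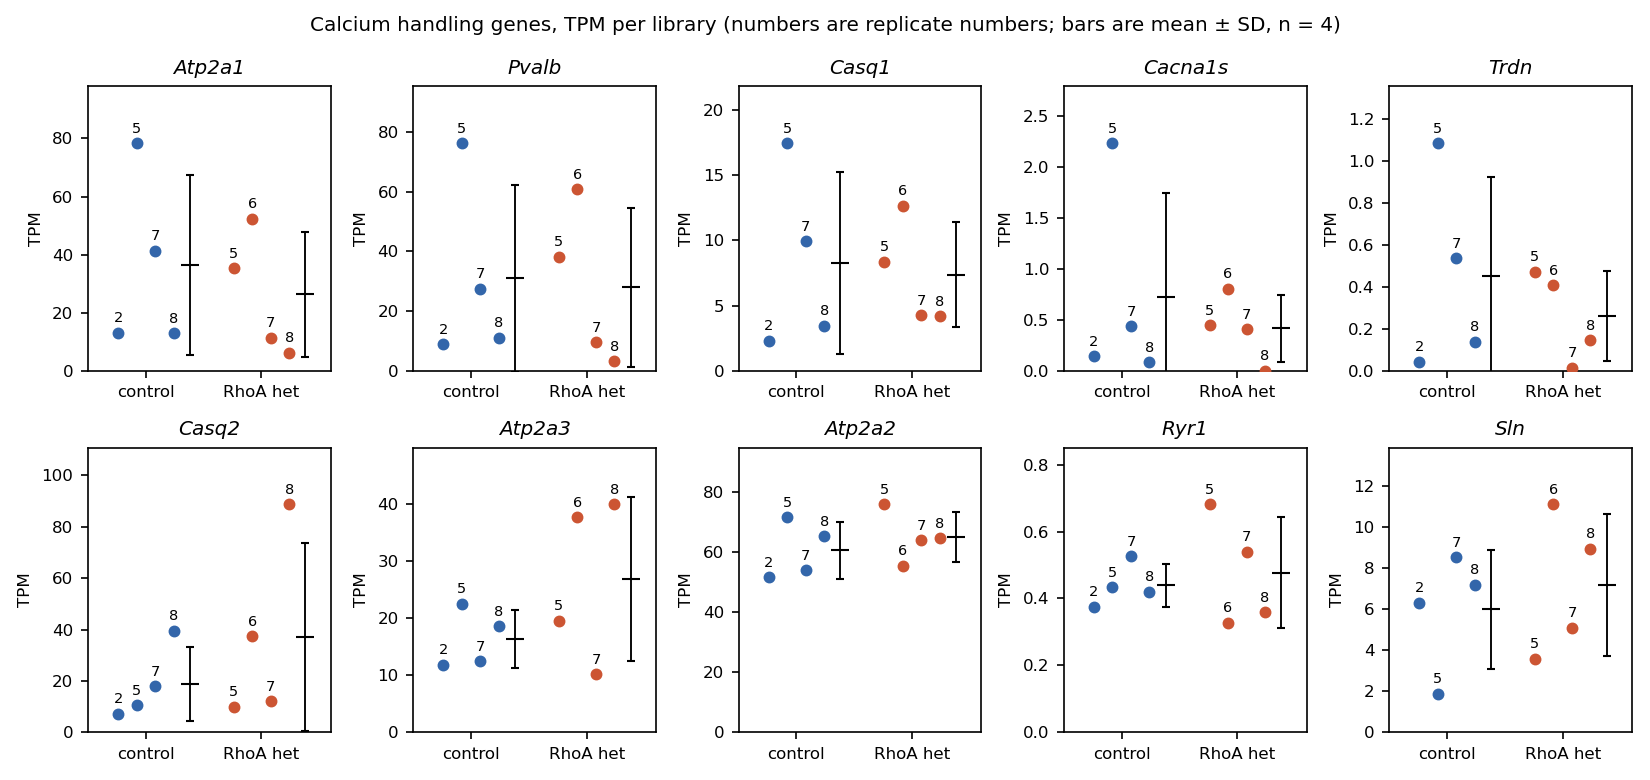
Deposited TPM of the 10 genes in each library (points, with replicate numbers), for control and RhoA het, with the mean ± SD (n = 4; bars are cut at 0). In the top row, control 5 is highest for every gene, and control and RhoA het points overlap in all 10 panels.

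Of the SERCA pumps, Atp2a1 (ENSMUSG00000030730.13; mm39 chromosome 7, 126045030 to 126062280, minus strand) varied most. It received 336, 1641, 1150 and 314 fragments in control and 753, 1247, 267 and 129 fragments in RhoA het. In TPM this was 13.2, 78.4, 41.3 and 13.0 in control and 35.4, 52.4, 11.5 and 6.33 in RhoA het. The libraries control 5, control 7, RhoA het 5 and RhoA het 6 were high, the other 4 libraries were low, and the groups overlapped. Means were 36.5 ± 31.0 TPM in control and 26.4 ± 21.5 TPM in RhoA het (SD, n = 4 each). The highest library exceeded the lowest 12.4-fold in TPM. On the log2 CPM scale the range of Atp2a1 was 3.50, wider than that of 96.6% of the tested genes, whose median range was 0.96. Its exons overlap those of Rabep2, which is read in the other direction, over 763 bases. Fragments were counted without regard to strand, so those of the overlap cannot be assigned, and Rabep2 held 172 to 344 fragments per library. Opposite-strand exon overlaps also occur for Atp2a2 (83 bases with Gm43361), Ryr1 (864 with Gm26604), Casq1 (156 with Gm17224) and Cacna1s (1309 with Gm37759). Of these partners, Gm43361 held 212 to 707 fragments per library and the others at most 3.

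Atp2a2 (mm39 chromosome 5, 122591576 to 122640288) was nearly level. Its values were 51.6, 71.5, 53.9 and 65.2 TPM in control and 75.7, 55.3, 63.9 and 64.5 TPM in RhoA het, and no library stood out in either group. On the log2 CPM scale its range was 0.43, and only 7.81% of tested genes had a smaller one. Over all 8 libraries its log2 fold change in RhoA het was 0.017 (SE 0.12, 95% interval -0.26 to 0.29).

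Atp2a3 (mm39 chromosome 11, 72851995 to 72883870) was at 11.9, 22.5, 12.5 and 18.5 TPM in control. The RhoA het libraries were at 19.6, 37.6, 10.2 and 39.9 TPM. RhoA het 6 and RhoA het 8 lay above every other library, and the lowest library, RhoA het 7, was also of that group. The log2 fold change over all libraries was 0.67 (SE 0.40; edgeR quasi-likelihood test, adjusted p 1.0; two-sided exact permutation p 0.4). Its 2 high libraries were those with the highest sums of the mural and smooth muscle genes. RhoA het 6 also had the highest endothelial sum, and the platelet genes summed to at most 5.51 CPM anywhere. The part of other cells in the level of Atp2a3 was not tested.

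Because Atp2a2 was level and its relatives were not, the make-up of the pump transcripts changed from library to library. Atp2a1 was 45.5% of the summed TPM of the 3 pumps in control 5 and 5.72% in RhoA het 8. Atp2a2 was the largest of the 3 in 7 of 8 libraries, with 38.1% to 74.7%. In control 5 Atp2a1 exceeded it, with a ratio of 1.10. Atp2a3 ranged from 11.6% to 36.0%, and in control 8 and RhoA het 8 its share was above that of Atp2a1.

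**Figure D2:**
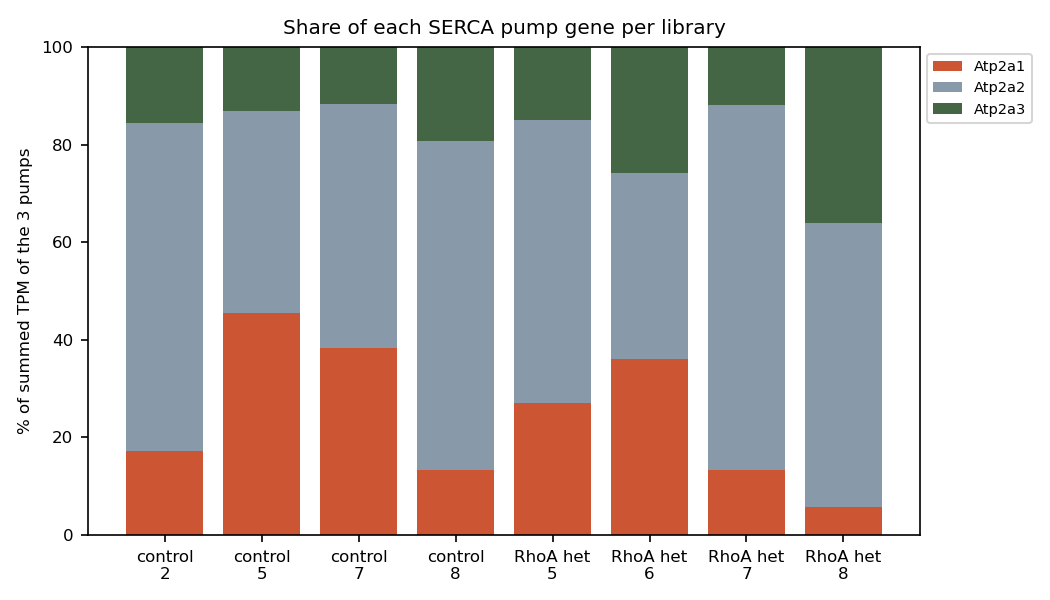
Share of Atp2a1, Atp2a2 and Atp2a3 in the summed TPM of the 3 pump genes (%, stacked bars) in each control and RhoA het library. Atp2a1 takes 45.5% in control 5 and 5.72% in RhoA het 8.

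The cytosolic buffer Pvalb (mm39 chromosome 15, 78075314 to 78090600) followed Atp2a1. It was at 8.91, 76.3, 27.5 and 11.2 TPM in control and at 38.3, 60.8, 9.60 and 3.28 TPM in RhoA het. The same 4 libraries were high as for Atp2a1, and the ratio of Pvalb to Atp2a1 in TPM stayed between 0.518 and 1.16. The skeletal calsequestrin Casq1 (mm39 chromosome 1, 172037461 to 172047435) was at 2.31, 17.5, 9.93 and 3.46 TPM in control and 8.37, 12.7, 4.28 and 4.20 TPM in RhoA het, in the same order of replicates. It too was highest in control 5 and RhoA het 6. Its ratio to Atp2a1 was 0.175 to 0.374 in 7 libraries and 0.663 in RhoA het 8, where Atp2a1 was lowest.

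The pore subunit Cacna1s and the anchor Trdn were thinly covered. Cacna1s (mm39 chromosome 1, 135980488 to 136047560) had 7, 88, 23 and 4 fragments in control and 18, 36, 18 and 0 fragments in RhoA het. The 0 in RhoA het 8 allows up to 3 fragments, or 0.154 CPM, counting error only. Trdn (mm39 chromosome 10, 32956550 to 33352705) had 3, 61, 40 and 9 fragments in control and 27, 26, 1 and 8 in RhoA het. Both genes were highest in control 5, and their groups overlapped.

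Casq2, the calsequestrin of cardiac and slow muscle that smooth muscle also makes, behaved otherwise. Casq2 (mm39 chromosome 3, 101993731 to 102053830) was at 7.28, 10.5, 17.9 and 39.5 TPM in control. In RhoA het it was at 10.03, 37.4, 12.2 and 88.7 TPM. RhoA het 8, the lowest library for Atp2a1, was the highest for Casq2, and Casq2 exceeded Casq1 by 21.1-fold in TPM there against 0.602-fold in control 5. The log2 fold change over all libraries was 0.92 (SE 0.73; edgeR adjusted p 1.0; two-sided exact permutation p 0.514), inside the spread between replicates. Without RhoA het 8 it was 0.050, so the estimate rests largely on that library.

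Ryr1 and Sln showed neither pattern. Ryr1 (mm39 chromosome 7, 28702769 to 28824604) lay between 0.328 and 0.681 TPM, with 46 to 92 fragments per library and means of 0.439 ± 0.0637 TPM in control and 0.477 ± 0.165 TPM in RhoA het (SD, n = 4 each). Sln (mm39 chromosome 9, 53757448 to 53761844), the sarcolipin gene, had 61, 15, 90 and 66 fragments in control and 29, 100, 45 and 69 fragments in RhoA het. In each group the library numbered 5 was the lowest.

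Likeness between genes was measured as Pearson's r of log2 CPM across the 8 libraries, as a description with no test, since the libraries share their depth and cell make-up over all genes. Of 15372 named genes, the 8 most like Atp2a1 were Mylpf (r = 0.992), Mybpc2 (0.985), Pvalb (0.982), Myl1 (0.981), Mgarp (0.980), Tnnt3 (0.972), Tmem229b (0.971) and Gm44148 (0.966). Mylpf and Myl1 encode light chains of fast myosin, Mybpc2 the fast myosin binding protein C and Tnnt3 the fast troponin T. Spearman's rho with Atp2a1 was 0.976 for Mylpf and 1.0 for Mybpc2. Without the 2 libraries farthest from the median of Atp2a1, r was 0.984 and 0.992. The ratio of Atp2a1 to Mylpf in TPM stayed between 0.736 and 1.13 while Atp2a1 itself moved 12.4-fold. Relative to Acta1, skeletal muscle actin, it ranged from 0.106 to 0.260.

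Among the other members, r with Atp2a1 was 0.895 for Cacna1s, 0.890 for Casq1 and 0.807 for Trdn (rho 0.929, 0.786 and 0.810), and 0.721, 0.927 and 0.897 without the 2 farthest libraries. It was 0.017 for Atp2a3, 0.011 for Ryr1, -0.25 for Atp2a2, -0.37 for Sln and -0.44 for Casq2. Without the 2 farthest libraries r became 0.236 for Casq2, 0.322 for Sln and 0.599 for Atp2a3, so these values rest on those 2 libraries. By r, 5 of the 10 genes (Atp2a1, Pvalb, Casq1, Cacna1s and Trdn) varied together with fast sarcomere transcripts and 5 did not. This grouping was made after the values were seen.

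By r over 8 libraries Casq2 was most like genes of smooth muscle, a comparison also made after its values were seen. Its closest genes were Lmod1 (r = 0.994), the smooth muscle leiomodin, Mrvi1 (0.989) and Gucy1b1 (0.986), a subunit of soluble guanylate cyclase, followed by Cnn1 (0.985), the smooth muscle calponin. With Myh11, the smooth muscle myosin heavy chain, r was 0.980 (rho 0.786, and 0.938 without the 2 farthest libraries). Casq2 was also like Cdh5, the endothelial cadherin, with r = 0.799 (rho 0.929, and 0.991 without the 2 farthest libraries), and like the pericyte gene Rgs5, with r = 0.848 (rho 0.905, and 0.993). Myh11 was at 31.1, 18.2, 42.0 and 124 CPM in control and at 21.7, 124, 20.4 and 306 CPM in RhoA het. The part of mural, smooth muscle or endothelial RNA in the level of Casq2 was not tested.

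**Figure D3:**
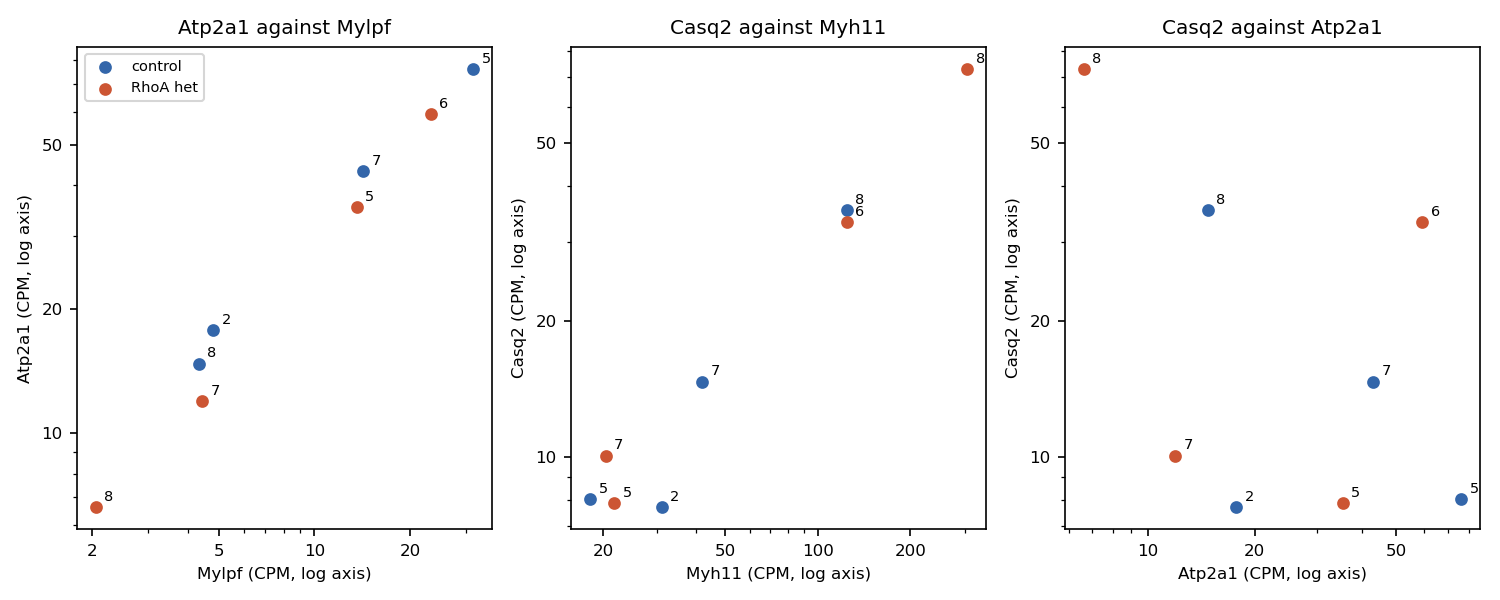
CPM of Atp2a1 against Mylpf, of Casq2 against Myh11 and of Casq2 against Atp2a1 in the 8 libraries (both axes log; numbers are replicate numbers). The first 2 panels rise along a line (r = 0.992 and 0.980 on log2 CPM), and the third does not (r = -0.44).

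The comparison of RhoA het with control asked which genes differ between the libraries labelled RhoA het and those labelled wild type. Over all 8 libraries 0 of 15660 tested genes passed an adjusted p of 0.05 (edgeR quasi-likelihood test, background 0%), with 372 genes at an unadjusted p under 0.05 (2.38%). DESeq2 also called 0, with 344 at an unadjusted p under 0.05 (2.2%). None of the 10 members passed at either level in either tool, and for none of them did the groups separate, which they did for 1.81% of tested genes. The log2 fold changes of the members lay between -0.74 for Trdn and 0.92 for Casq2, with a median of -0.033 beside -0.00071 over all tested genes. For Atp2a1 the estimate was -0.42 (SE 0.70). Without control 5, the library with the most Atp2a1, it was 0.16, and without RhoA het 6 it was -1.08.

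Within the pairs of libraries that share the numbers 5, 7 and 8, Atp2a1 was lower in RhoA het each time. In CPM, Atp2a1 was 76.2 (control) and 35.4 (RhoA het) in pair 5, 43.1 and 11.97 in pair 7, and 14.7 and 6.63 in pair 8, so control was 2.16-fold, 3.60-fold and 2.22-fold higher. This is the pattern for which it was chosen, so it is given without a test. With the replicate number as a block the log2 fold change was -1.40 (SE 0.17), the same 6 libraries without the block gave -1.33 (SE 0.71), and with the number as a random effect over all 8 libraries it was -0.91 (limma-voom). Over all features, 2 of 15714 tested genes were past an adjusted p of 0.05 in the block fit (0.0127%). One was Acta1, skeletal muscle actin, and the count includes Atp2a1 itself, for which this fit is no test because the same pairs chose it. With the number as a random effect 0 genes were called. The libraries outside the pairs went the other way: Atp2a1 was 59.3 CPM in RhoA het 6 and 17.7 CPM in control 2, 3.34-fold higher in the former.

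Of the other fast-fibre members, none passed the edgeR test with the block. Pvalb was lower in RhoA het in each pair, at 22.2 against 11.5 CPM, 8.58 against 3.00 CPM and 3.80 against 1.03 CPM for numbers 5, 7 and 8, with a log2 fold change of -1.40 in the block fit (SE 0.24, edgeR adjusted p 0.112). In DESeq2 with the block, which called 41 genes in all, Pvalb passed, with a log2 fold change of -1.39 (adjusted p 0.00111). With the number as a random effect over 8 libraries its log2 fold change was -0.84 (limma-voom adjusted p 0.910). In edgeR with the block and 1 pair left out, its adjusted p was 0.853 without pair 5, 0.231 without pair 7 and 0.00307 without pair 8. In pairs 5, 7 and 8 the log2 differences were -2.16, -0.086 and -1.60 for Cacna1s and -1.11, -3.53 and -0.033 for Trdn. Pair 7 for Cacna1s (23 and 18 fragments) and pair 8 for Trdn (9 and 8 fragments) were close to 0. Their block estimates were -1.45 (SE 0.60) and -1.62 (SE 0.65), with an edgeR adjusted p of 0.901 and 0.892. Casq1 was lower in pairs 5 and 7 and slightly higher in pair 8 (log2 differences -1.01, -1.18 and 0.15), for a log2 fold change of -0.76 (SE 0.31, edgeR adjusted p 0.892). By sign alone, 3 of the 9 members other than Atp2a1 (Pvalb, Cacna1s and Trdn) were lower in every pair, as were 12.5% of tested genes, and this counts the near-ties of Cacna1s and Trdn.

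For the remaining members the block fit gave log2 fold changes of 0.055 for Atp2a2 (SE 0.12), 0.16 for Atp2a3 (SE 0.21), 0.17 for Casq2 (SE 0.25), 0.11 for Ryr1 (SE 0.31) and 0.037 for Sln (SE 0.37), all with edgeR adjusted p between 0.946 and 0.99. The 95% interval for Atp2a2 was -0.21 to 0.32. In pairs 5, 7 and 8 the log2 differences were -0.027, -0.54 and 1.04 for Casq2 and -0.16, -0.29 and 0.98 for Atp2a3, so pair 8 went against the other two. At an unadjusted p under 0.05, 5 of the 10 members were lower in the block fit and 0 higher, against 2.28% of tested genes lower and 2.98% higher (5.26% in all). The count was 0 in the same 6 libraries without the block, and 0 with the number as a random effect over 8 libraries. The 5 include Atp2a1, share their libraries and were listed with Atp2a1 already known to be lower, so this count is no separate evidence.

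**Figure D4:**
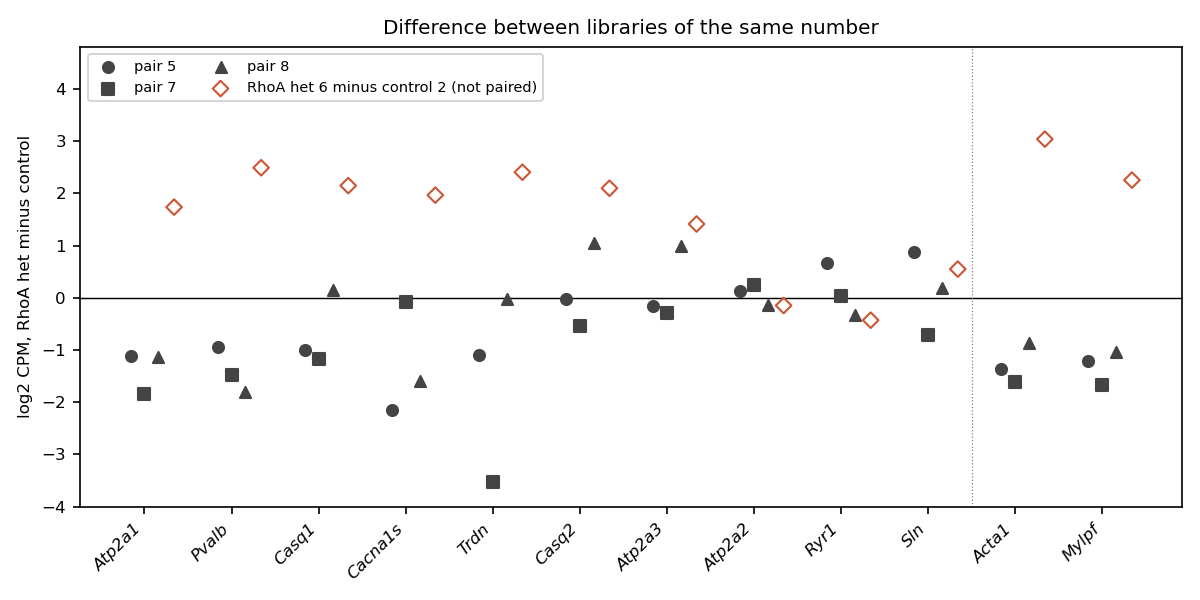
Difference in log2 CPM between RhoA het and control for the libraries numbered 5, 7 and 8 (filled symbols) and between RhoA het 6 and control 2 (open diamonds), for the 10 genes and the sarcomere genes Acta1 and Mylpf. Atp2a1 and Pvalb lie below 0 in all 3 pairs, as do Acta1 and Mylpf, while the open diamonds of these 4 genes lie above 0.

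The sarcomere genes differed in the same pairs and in the same directions. Mylpf was lower by 1.21, 1.67 and 1.04 on the log2 scale in pairs 5, 7 and 8, and Acta1 by 1.36, 1.61 and 0.87. In RhoA het 6 against control 2 Acta1 was 8.23-fold higher and Atp2a1 3.34-fold higher. Of the 18 myofibre genes tested in the block fit, 17 were lower, 12 of them at an unadjusted p under 0.05 (2.28% of all tested genes), with a median log2 fold change of -0.98 beside -0.021 over all tested genes. In the same 6 libraries without the block 4 were lower at that p, and over all 8 libraries 0 of 19 were, with a median of -0.056. The myofibre genes share their libraries with Atp2a1, which was chosen on these pairs, and several of them, such as Mylpf and Acta1, varied with it. Their counts are thus no separate evidence. The part of myofibre RNA in the difference of Atp2a1 was not tested. Of the 10 members, 8 were higher in RhoA het 6 than in control 2, the exceptions being Atp2a2 and Ryr1.

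**Figure D5:**
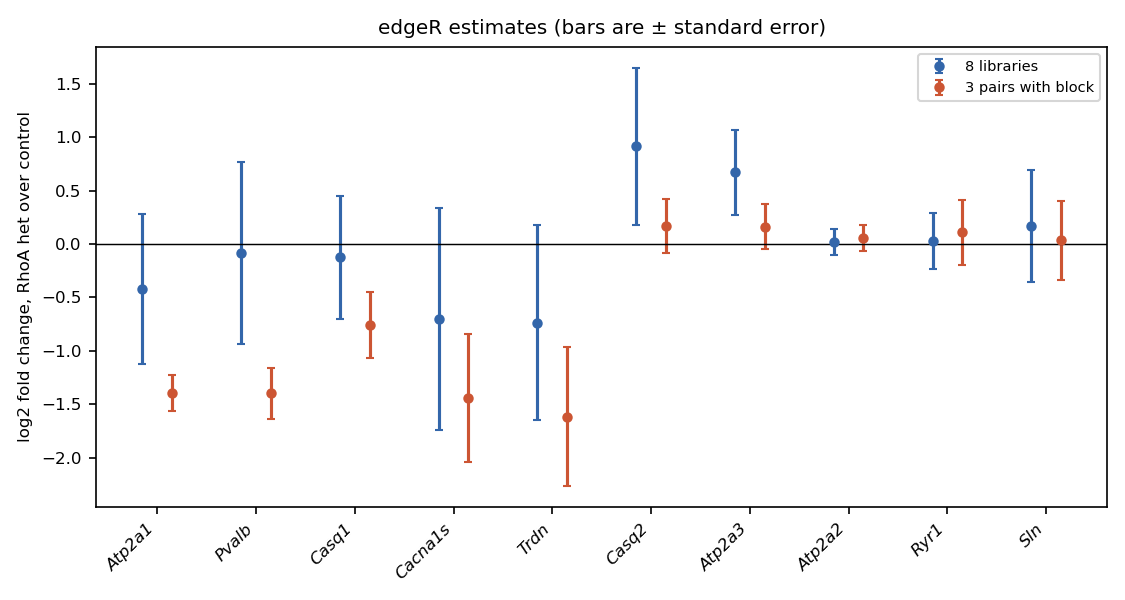
edgeR log2 fold change of each gene, RhoA het over control, with its standard error, over all 8 libraries (blue) and over the 3 pairs with the replicate number as a block (red). For Atp2a1 the estimate is -0.42 (SE 0.70) in the former and -1.40 (SE 0.17) in the latter.

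The rest of the calcium handling pathway was taken from a list of 43 further genes with a measured identifier, of which 39 were tested. In the edgeR fit over all libraries 0 passed an adjusted p of 0.05; at an unadjusted p under 0.05, 2 were lower and 0 higher, beside 0.696% and 1.68% of all tested genes. With the block again 0 passed and 4 were lower and 0 higher at an unadjusted p under 0.05, beside 2.28% and 2.98% of all tested genes in that fit, with a lowest adjusted p of 0.395. The median log2 fold change of these 39 genes was -0.065 over all libraries and -0.058 with the block. The genes named next were the most abundant non-member of each role by TPM, or had an unadjusted p under 0.05 in either fit, the latter a choice made after the values were seen. Pln, Strit1 and the Itpr genes fall outside both and were also chosen after their values were seen.

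Among pump regulators, myoregulin (Mrln), a micropeptide that inhibits SERCA, was far above sarcolipin at a mean of 47.9 TPM. It ran from 27.4 to 77.0 TPM in control and from 29.1 to 59.5 TPM in RhoA het, and its log2 fold change was -0.31 over all libraries and -0.39 with the block (SE 0.16, edgeR adjusted p 0.901). Phospholamban (Pln) was at 2.29 TPM on average, and Strit1, the micropeptide that counters these inhibitors, was at 0 fragments in all 8 libraries. Among release channels, Ryr3, the isoform of immature muscle, was above Ryr1 per length, at a mean of 1.26 TPM. It was at 2.19, 1.16, 2.06 and 1.32 TPM in control and at 0.835, 1.22, 0.849 and 0.432 TPM in RhoA het. RhoA het 6 alone reached into the control range. The log2 fold change of Ryr3 was -1.12 over all libraries (unadjusted p 0.0154, adjusted p 1.0 in edgeR) and -1.16 with the block (SE 0.28, edgeR adjusted p 0.395). Fkbp1a, which binds these channels, was the most abundant gene of that role at 253 TPM, with a log2 fold change of -0.061. The inositol trisphosphate receptors, the release channels of non-muscle cells, were at 7.74 TPM (Itpr1), 16.2 TPM (Itpr2) and 6.12 TPM (Itpr3), all above Ryr1 and Ryr3.

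Of the voltage sensor complex, the subunit Cacna2d1 was at 7.87 TPM with a log2 fold change of 0.039. Stac3, an adaptor that the sensor needs in muscle, had 5, 118, 16 and 33 fragments in control and 76, 30, 10 and 9 in RhoA het. It was high in both libraries numbered 5, and its block estimate was -0.90 (SE 0.39, edgeR adjusted p 0.921). In the lumen and at the triad, calreticulin (Calr), the calcium buffer of the general endoplasmic reticulum, was at 794 TPM, far above Casq1 and Casq2. Jsrp1, a triad protein that binds calsequestrin and the voltage sensor, was at 96.9 TPM on average. It was at 86.0, 147, 94.9 and 114 TPM in control and 99.7, 87.1, 88.8 and 57.5 TPM in RhoA het, and the groups overlapped. Its log2 fold change was -0.47 over all libraries (unadjusted p 0.0291, adjusted p 1.0 in edgeR) and -0.59 with the block (SE 0.18, edgeR adjusted p 0.612).

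None of the general calcium genes passed the test. Calm2, a calmodulin gene, was at 2663 TPM with a log2 fold change of -0.092 over all libraries. Atp2b1, the plasma membrane calcium pump, was at 66.0 TPM (-0.043), the store sensor Stim2 at 12.3 TPM (0.10), and Smdt1, a subunit of the mitochondrial uniporter, at 149.8 TPM (-0.16), each with an edgeR adjusted p of 1.0. For store-operated entry and for export, neither fit had a gene at an unadjusted p under 0.05, and the same held for mitochondrial uptake.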

How the data were processed

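RNA of muscle stem cells was extracted with Trizol and amplified by template switching in a low-input kit, per the labels' protocols. The authors deposited fragment counts per gene, made from STAR alignments with featureCounts 1.6.4 in paired-end mode without a strand option, over GENCODE mouse release 34 on mm39, per the file headers, and a table of TPM. Dividing the counts by the listed exon length and rescaling each library gave the deposited TPM back (largest relative difference 1.5e-14). The counting command named 10 libraries, of which 8 were analysed here. Symbols came from GENCODE release 21 by identifier (51884 of 57180 genes). 1 listed symbol was matched through a RefSeq synonym, and 1, Erln, was not matched.

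Groups and replicate numbers came from the titles. The labels do not say that libraries come from separate mice, so p-values measure the spread between these samples. Genes passing filterByExpr were scaled by TMM and tested with edgeR 4.0.16 (quasi-likelihood, R 4.3.3) over 8 libraries without covariates, with Benjamini-Hochberg adjustment over all tested genes; checks used DESeq2 1.42.0 and limma 3.58.1. The script was tested on simulated data with a smaller spread between replicates than the fit over 8 libraries estimated. That test therefore does not give what this fit can detect. log2 CPM used a prior count of 2. The exact permutation test covered 70 assignments, and the smallest p it can give is 0.0286. Numbers 5, 7 and 8 occur in both groups. Deviations from the group means correlated at 0.584, 0.335 and 0.502 within these pairs. The mean of -0.24 between different numbers is no separate contrast, because deviations from a group mean cancel out within the group. On the correlation within pairs alone, the numbers were taken to pair the libraries, which the labels do not state. A second fit used the number as a block. The members and lists were chosen with earlier results of these data known. Genes named by rule were the 10 members, the most abundant non-member of each role, listed genes past the threshold, and the 8 genes most like Atp2a1. Others were named after their values were seen: listed genes at an unadjusted p under 0.05, Pln, Strit1, the Itpr genes and the genes closest to Casq2. Marker genes such as Acta1, Myh11, Rgs5 and Cdh5 were named as well. Promoter sequences are RefSeq's, in GRCm38.p6. Intervals and limits cover counting error or replicate spread only, as named.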

Additional observations from a re-analysis of the deposited data

Results flagged for a closer look

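Sln in control replicate 5, at 15 fragments, stood apart from the 61 to 90 fragments of the other control libraries. Its gap to the nearest control library was 0.945 of the group's range in log2 CPM, above Dixon's 95% critical value for 4 libraries. This was 1 of 20 groups of values checked (10 genes in 2 groups), and chance alone gives about 1. RhoA het replicate 5, with 29 fragments, was the lowest RhoA het library.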

How the results depend on the processing

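Without the block, the number of genes called and of listed calcium genes called was 0 under every alternative tried (other size factors, total counts, no filter, DESeq2, limma on TPM, and each library left out). With the replicate block as a fixed term the counts were 2 genes and 1 listed gene in edgeR and 41 and 2 in DESeq2, and as a random effect over 8 libraries they were 0 and 0. The listed genes so counted are Atp2a1, chosen for being lower in these pairs, and in DESeq2 also Pvalb, so these counts support nothing about the list. With 1 pair left out under the block (chosen after seeing the data) they were 0 and 0 without pair 5, 9 and 1 without pair 7, and 113 and 2 without pair 8. Leaving out 1 of the 8 libraries gave log2 fold changes of -1.08 to 0.16 for Atp2a1, -0.062 to 0.065 for Atp2a2, -0.16 to 0.14 for Ryr1, -0.58 to 0.43 for Casq1, -1.30 to 0.79 for Cacna1s, -1.13 to 0.047 for Trdn, -0.17 to 0.40 for Sln and -0.89 to 0.75 for Pvalb. The positive ends of Atp2a1, Casq1, Cacna1s, Trdn and Pvalb came without control replicate 5. Casq2 (0.050 to 1.61) and Atp2a3 (0.41 to 0.94) kept their sign. Leaving out 1 pair under the block gave -1.53 to -1.15 for Atp2a1, and turned the sign of Casq2 (-0.28 to 0.55), Atp2a3 (-0.21 to 0.40), Atp2a2 (-0.027 to 0.20), Ryr1 (-0.16 to 0.37) and Sln (-0.28, -0.0046 and 0.49). Trdn was below the filter without pair 5. Casq1 turned from -0.13 to 0.060 and 0.11 in limma on log2(TPM + 1) and log2(TPM + 0.1), and Sln from 0.17 to -0.085 in the 6 paired libraries without the block. The cause was not tested. Depth limits Cacna1s and Trdn most, with 0 to 88 and 1 to 61 fragments per library.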
